A study of Homo sapiens with 6 samples.

Results

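The enzymes that make cholesterol and fatty acids, with the factors that regulate them, were followed in K562 cells that expressed wild-type C/EBPα or its p30 isoform. The genes were taken by name from a list of 29, and 27 of them had a row in all 3 tables, which together name 17066 genes. LSS and SCD were not analysed here. All 27 exceeded 1 FPKM in every comparison, so that no member was lost to the filter on low values. FPKM is the number of fragments of a gene scaled to its transcript length and to the mapped fragments of the library. It lets genes be ranked within a group. Between groups it is a relative measure, which also depends on the other RNAs of each library and on the normalization.

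K562 is a long-established leukemia line that carries erythroid traits. The 6 samples were 2 replicates each of cells that carried an empty vector (CTR), wild-type C/EBPα (CEBPA) or the p30 isoform (P30), a shorter C/EBPα protein without the N-terminal transactivation domain. The constructs were brought in by a PiggyBac transposon, and all 3 lines received 200 ng/ml doxycycline for 48 h to switch on the transgene. Each group is 1 stable line, the blots of the study name both the long form and p30 for the CEBPA line, and no sample without doxycycline is among the 6, so that a difference between the lines and an effect of the induced protein cannot be told apart. In the deposited tables each group has a single FPKM per gene, into which the replicates were pooled. The deposited values therefore carry no error and allow no test or replicate check of their own, and FPKM does not hold the depth of a sample. The study tested the genes with Cuffdiff and described the depth and the agreement of its replicates, and neither its calls nor those descriptions are used here. A gene is called here when its log2(FPKM + 1) differed by at least 2-fold between groups, and counts at 1.5-fold are given beside it, because most members differed by less than 2-fold. Each count is read against the share of all genes compared that passed the same limit. The level of the transgene itself was not analysed here.

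As background, cholesterol is built from acetyl-CoA. The mevalonate branch leads from ACAT2 and HMGCS1 to farnesyl diphosphate, and the sterol branch leads from FDFT1, which makes squalene, to DHCR7, which carries out a last step to cholesterol. Fatty acids are built from the same acetyl-CoA, supplied by ACLY and ACSS2, through ACACA and FASN. They are then elongated by ELOVL6 and desaturated by SCD, while FADS1 and FADS2 act mainly on polyunsaturated fatty acids. The transcription factors SREBP-1 and SREBP-2, encoded by SREBF1 and SREBF2, are held in the endoplasmic reticulum with the help of INSIG1 when sterols are plentiful and activate most of these genes when sterols are scarce. NF-Y, which binds CCAAT, works with them at many of these promoters.

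Promoter sequences are shown for the members that were at least 2-fold apart in at least 1 comparison: the regulators SREBF1, SREBF2 and INSIG1, the sterol enzymes TM7SF2 and SC5D, which differed in opposite directions, and the desaturase FADS1. FASN, which also passed, had no entry among the promoter sequences used. Each is the 250 bases upstream of a RefSeq start site in GRCh38.p14, read 5′ to 3′ on the strand of the gene. Capitals mark CCAAT or its reverse complement ATTGG, the NF-Y site, and in SREBF2 also TCACCCCAC, a match to the SREBP site. SREBF1 and FADS1 hold neither motif in the bases shown and carry no capitals.
SREBF1 (chr17:17836987-17837236, minus strand): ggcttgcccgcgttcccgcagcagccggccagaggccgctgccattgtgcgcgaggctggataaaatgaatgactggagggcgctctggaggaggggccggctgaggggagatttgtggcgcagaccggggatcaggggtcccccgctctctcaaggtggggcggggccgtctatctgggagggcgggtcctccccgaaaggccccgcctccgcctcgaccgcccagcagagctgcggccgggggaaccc
SREBF2 (chr22:41832855-41833104, plus strand): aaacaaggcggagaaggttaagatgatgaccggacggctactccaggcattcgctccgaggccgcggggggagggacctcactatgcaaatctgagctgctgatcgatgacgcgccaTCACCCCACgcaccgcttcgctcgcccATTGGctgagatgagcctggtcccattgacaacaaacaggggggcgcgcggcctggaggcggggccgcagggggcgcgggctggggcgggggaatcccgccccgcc
INSIG1 (chr7:155297628-155297877, plus strand): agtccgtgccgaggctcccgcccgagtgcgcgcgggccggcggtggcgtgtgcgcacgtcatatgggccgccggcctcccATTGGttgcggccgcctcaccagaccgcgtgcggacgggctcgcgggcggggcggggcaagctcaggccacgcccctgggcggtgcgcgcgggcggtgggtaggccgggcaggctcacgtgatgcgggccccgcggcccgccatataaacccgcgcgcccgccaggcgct
TM7SF2 (chr11:65111622-65111871, plus strand): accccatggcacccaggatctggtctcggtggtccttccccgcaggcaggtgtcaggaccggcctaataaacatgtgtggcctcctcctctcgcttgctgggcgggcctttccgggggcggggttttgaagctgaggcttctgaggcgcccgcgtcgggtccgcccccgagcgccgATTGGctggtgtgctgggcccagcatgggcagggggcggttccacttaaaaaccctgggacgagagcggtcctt
SC5D (chr11:121292521-121292770, plus strand): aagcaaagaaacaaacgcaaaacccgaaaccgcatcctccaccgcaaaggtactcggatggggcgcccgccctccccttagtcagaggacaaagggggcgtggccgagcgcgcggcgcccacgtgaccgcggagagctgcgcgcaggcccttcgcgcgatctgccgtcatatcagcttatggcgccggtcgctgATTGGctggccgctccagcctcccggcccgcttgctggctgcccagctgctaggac
FADS1 (chr11:61817004-61817253, minus strand): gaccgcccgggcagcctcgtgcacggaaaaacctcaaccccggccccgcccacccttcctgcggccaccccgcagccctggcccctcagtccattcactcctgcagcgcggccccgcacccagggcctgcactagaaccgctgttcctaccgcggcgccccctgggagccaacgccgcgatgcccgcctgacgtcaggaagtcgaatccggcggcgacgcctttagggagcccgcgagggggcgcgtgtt

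Motifs were searched on both strands in windows of 300 bases, from 250 bases upstream of each start site to 50 bases into the transcript. Of the 27 members, 23 had at least 1 window, 33 windows in all. CCAAT occurred in 22 of these 33 windows (66.7%), against 34.6% of all 35116 windows in the table. It was held by 18 of the 23 member genes (78.3%), against 43.2% of the 8558 genes among those compared that had a window. The SREBP site TCACNCCAC was found in 1 of the 33 windows (3.03%), that of SREBF2, 133 bases upstream of the start site, against 1.13% of all windows. The C/EBP site TTGCNNAA was found in 2 windows (6.06%), against 10.5% of all. These were the windows of NSDHL, where TTGGGCAA starts 137 bases upstream and overlaps an ATTGG by all but its first base, and of FADS1, where TTGCCCAA starts in the transcript, 17 bases after the start site. A match describes these letters only, and no binding was measured at these promoters.

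The lipid synthesis genes were well expressed. In CTR the 27 members ranged from 13.5 FPKM (HSD17B7) to 174 FPKM (FDPS), with a median of 67.4, against a median of 11.7 over all rows compared with CEBPA. The summed level of the 27 members was 1890 FPKM (CTR), 1415 FPKM (CEBPA) and 2043 FPKM (P30). Without FADS1 these sums were 1814, 1349 and 1821, so that CTR and P30 hardly differed in the sum of the other 26 genes. Where 3 levels are given without names, here and in what follows, they stand in the order CTR, CEBPA and P30. In proportion, the regulators showed the largest step of the 4 groups of members, from a sum of 203 FPKM in CTR and 222 in P30 to 102 in CEBPA. The fatty acid branch had a sum of 547 FPKM (CTR), 339 FPKM (CEBPA) and 666 FPKM (P30). The mevalonate branch had 477, 384 and 481 FPKM and the sterol branch 664, 590 and 674 FPKM.

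**Figure D1:**
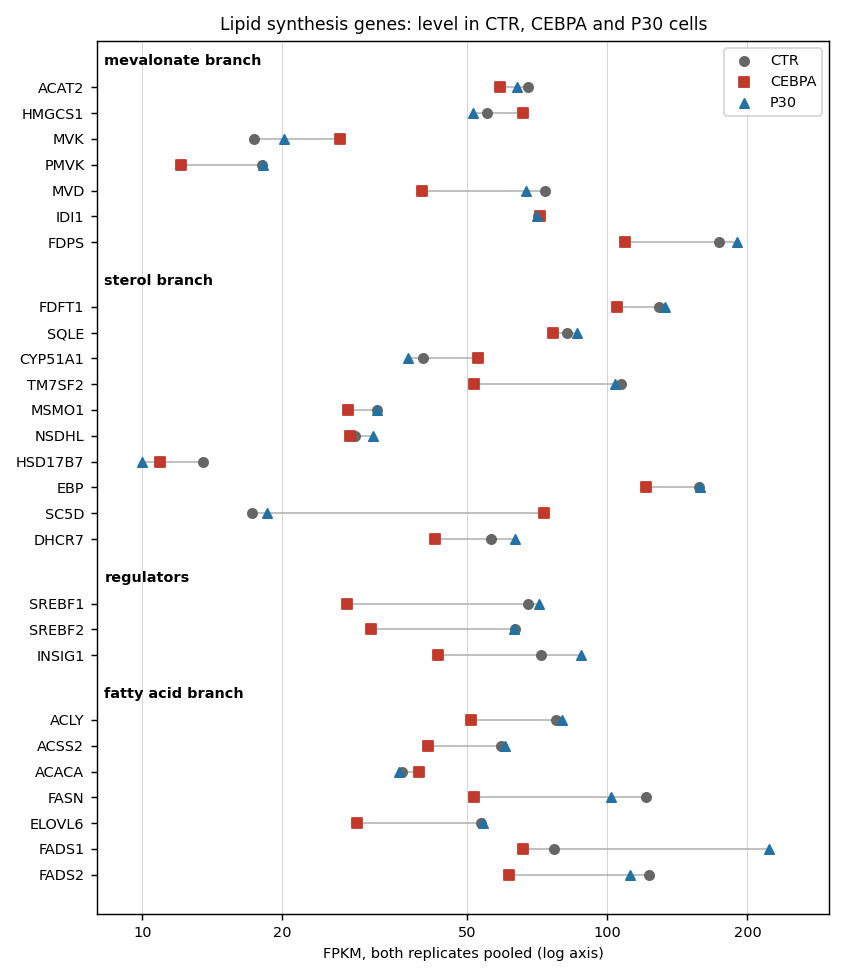
FPKM (log axis) of the 27 members in CTR, CEBPA and P30 cells, grouped by branch, with 1 point per group for both replicates pooled and a grey line over the range of the 3 points. The CTR and P30 points lie furthest apart for FADS1, with 76.6 and 223 FPKM, while the CEBPA point is the lowest for most genes and by far the highest for SC5D.

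To ask how wild-type C/EBPα related to lipid synthesis, CEBPA was compared with CTR. Of the 27 members 21 were lower and 6 higher in CEBPA, with a median log2 change of -0.37, against -0.01 over all 13673 genes compared. SREBF1, SREBF2, TM7SF2 and FASN were at least 2-fold lower, that is 4 of 27 (14.8%), against 6.92% of all genes. With a pseudocount of 0.1 the members at this limit were 5, and with changes centred on the median of all genes 3. Only SC5D was at least 2-fold higher (3.70%), against 14.0% of all genes. In both comparisons with CEBPA the share of genes higher includes some that passed the filter through CEBPA alone. ALB, with 0.119 FPKM in CTR and 0.329 in P30, is 1 of them. The lowest value of a member in any group was 10.0 FPKM, so these shares are not matched to the members in level. At 1.5-fold, 10 members were lower (37.0%), against 18.6% of all genes, and SC5D alone was higher (3.70%), against 24.0%. The other 16 members stayed within 1.5-fold, with MVK (0.58) just inside, and 2 members were higher at this limit with a pseudocount of 0.1 or with changes centred on the median of all genes. In such bulk samples fewer cells of a type and less RNA per cell cannot be told apart. Changes of all genes were wide in this comparison, with a spread of 0.73 on the log2 scale, as the scaled median absolute deviation.

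CEBPA compared with P30 gave similar numbers, but the comparisons share the CEBPA libraries and are not independent. Here 20 members were lower and 7 higher, with a median of -0.53, against -0.04 over all 13569 genes. At least 2-fold lower were SREBF1, INSIG1 and FADS1, or 3 of 27 (11.1%), against 5.79% of all genes, and SC5D was the only member at least 2-fold higher (3.70%), against 13.1%. At 1.5-fold, 11 members were lower (40.7%), against 17.8%, and 1 was higher (3.70%), against 22.3%. With a pseudocount of 0.1 the members at least 2-fold lower were 5 in place of 3, and with changes centred on the median of all genes they were 2. Several genes lay at the very edge of the 2-fold limit of 1 on the log2 scale. SREBF2 was just inside it in CEBPA over CTR (-1.001) and just outside it in CEBPA over P30 (-0.998). INSIG1 was just inside in CEBPA over P30 (-1.004), while FADS2 in CEBPA over CTR (-0.996) and TM7SF2 in CEBPA over P30 (-0.990) were just outside.

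P30 and CTR, in contrast, had nearly the same levels of these genes. The median change of the members was 0.01, against 0.02 over all 12395 genes compared, and 26 of the 27 stayed within 1.5-fold. FADS1 was at least 2-fold higher in P30, 1 of 27 members (3.70%), against 1.02% of all genes, and 0 members were at least 2-fold lower, against 0.613%. At 1.5-fold the counts were again 1 higher, against 2.69% of all genes, and 0 lower, against 2.63%. After FADS1 the widest differences were those of HSD17B7 (-0.39), INSIG1 (0.28) and FASN (-0.24), where the spread of all genes was 0.20.

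Markers of cell state moved in the same comparisons. The summed level of 6 of 7 erythroid markers was 1653 FPKM (CTR), 574 FPKM (CEBPA) and 1140 FPKM (P30), and that of 4 of 7 granulocyte markers was 49.3, 10194 and 71.0 FPKM. The summed level of 6 proliferation genes was 736 FPKM (CTR), 538 FPKM (CEBPA) and 785 FPKM (P30). Their median change in CEBPA over CTR was -0.75, with a range from -0.84 (MCM2) to 0.11 (CCNB1, which was higher). Of the markers of lipid-making tissues, CIDEC of adipocytes did not exceed 0.620 FPKM in any group, and ALB of hepatocytes had 6.02 FPKM in CEBPA, 0.119 in CTR and 0.329 in P30. None of the markers with a value was listed at 0, and 10 others, such as MPO and ADIPOQ, were not analysed here. The part of these shifts in the differences of the lipid genes was not tested.

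**Figure D2:**
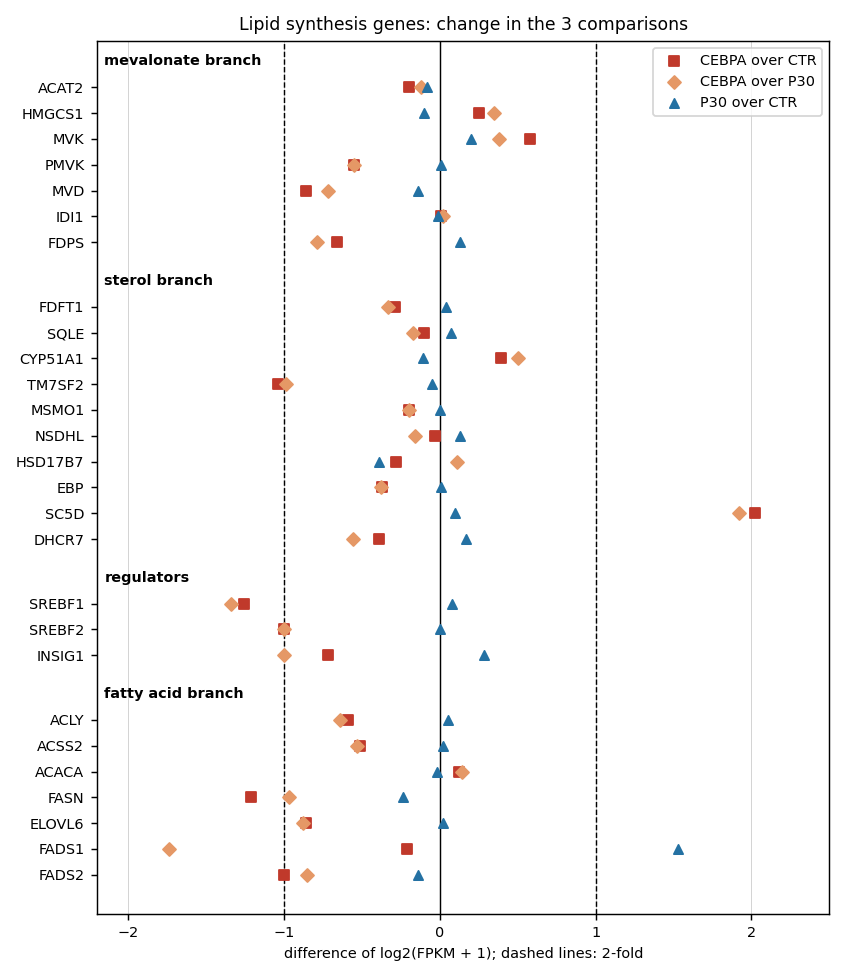
Difference of log2(FPKM + 1) for each of the 27 members in CEBPA over CTR, CEBPA over P30 and P30 over CTR, with the 2-fold limits as dashed lines. The P30 over CTR points lie near 0 except FADS1 (1.53), and SC5D stands alone on the right in both comparisons with CEBPA (2.02 and 1.92).

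**Figure D3:**
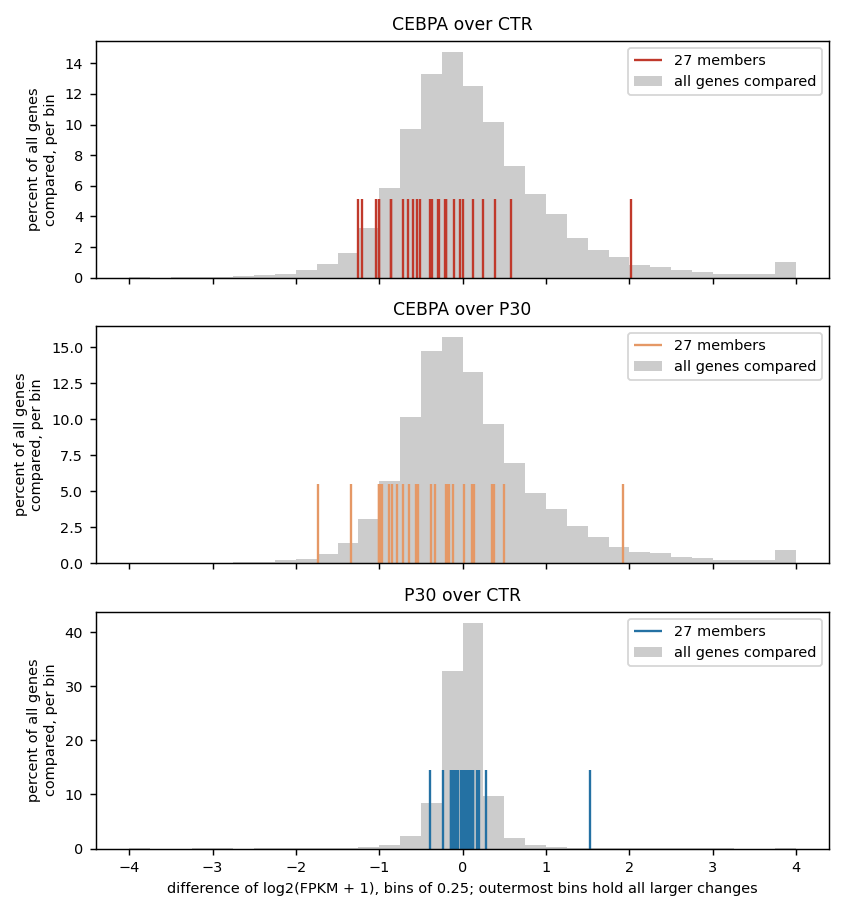
Changes of all genes compared (grey bars, percent of genes in bins of 0.25 on the log2 scale) and of the 27 members (coloured lines) in the 3 comparisons. In both comparisons with CEBPA most members lie on the lower side, at medians of -0.37 and -0.53, and within the range that many other genes also reach.

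Among the regulators, all 3 genes were lower in CEBPA than in either other group. SREBF1, which encodes the SREBP-1 forms that favour fatty acid genes, had 67.4 FPKM (CTR), 27.5 FPKM (CEBPA) and 71.4 FPKM (P30). As a ratio of FPKM without the added 1, the form in which folds of single genes are given from here on, it was 2.45-fold lower in CEBPA than in CTR, a log2 change of -1.26 that 3.57% of all genes equalled or exceeded downwards, and its change over P30 was -1.34. SREBF2, which encodes SREBP-2, the main activator of the cholesterol genes, had 63.2 FPKM (CTR), 31.1 FPKM (CEBPA) and 63.1 FPKM (P30). It was 2.03-fold lower in CEBPA than in each of the others, and nearly the same in CTR and P30. INSIG1 had 72.1 FPKM (CTR), 43.3 FPKM (CEBPA) and 87.8 FPKM (P30), so that it was 1.66-fold lower in CEBPA than in CTR and 2.03-fold lower than in P30. SREBF1 overlaps RAI1 on the opposite strand, which had 6.85, 4.20 and 6.87 FPKM. The ratio of SREBF1 to SREBF2 was 1.07 in CTR, 0.88 in CEBPA and 1.13 in P30. In GRCh37, SREBF1 (ENSG00000072310) spans chr17:17713713-17740316 on the minus strand, SREBF2 (ENSG00000198911) chr22:42229109-42303310 on the plus strand, and INSIG1 (ENSG00000186480) chr7:155089486-155101945 on the plus strand.

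In the mevalonate branch 0 of 7 genes reached 2-fold in any comparison. In CEBPA over CTR 14.0% of all genes were higher by that limit and 6.92% lower. The median change of the branch in CEBPA over CTR was -0.20, against -0.01 over all genes. HMGCS1, which makes HMG-CoA, had 55.2 FPKM (CTR), 65.7 FPKM (CEBPA) and 51.4 FPKM (P30), a log2 change of 0.25 in CEBPA over CTR. MVK, mevalonate kinase, was the highest of the branch in this comparison, with 17.4, 26.6 and 20.2 FPKM and a change of 0.58. The decarboxylase MVD was the lowest, with 73.5 FPKM (CTR), 40.0 FPKM (CEBPA) and 66.7 FPKM (P30), a change of -0.86. FDPS, farnesyl diphosphate synthase and the most abundant of the branch, had 174, 109 and 190 FPKM, with changes of -0.66 over CTR and -0.79 over P30. These enzymes act one after the other and did not move together: PMVK, between MVK and MVD, had a change of -0.55 over CTR, IDI1 0.01 and ACAT2 -0.20. ACAT2 overlaps SOD2 on the opposite strand, which had 50.3, 543 and 54.1 FPKM, and MVK overlaps MMAB, likewise on the opposite strand, with 46.0, 32.0 and 55.9 FPKM. In P30 over CTR the branch ranged from -0.14 (MVD) to 0.20 (MVK).

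The sterol branch had a similar median of -0.24 in CEBPA over CTR, against -0.01 over all genes, with 8 of 10 genes lower. It held the widest contrast between members. SC5D, the desaturase that acts just before DHCR7 in the route over lathosterol, had 17.2 FPKM (CTR), 72.9 FPKM (CEBPA) and 18.5 FPKM (P30). It was 4.23-fold higher in CEBPA than in CTR and 3.93-fold higher than in P30, and went from the second lowest level of the branch in CTR to the fourth highest in CEBPA. A change as high or higher was found for 4.07% of all genes in CEBPA over CTR. TM7SF2, a sterol C14 reductase, had 107 FPKM (CTR), 51.7 FPKM (CEBPA) and 104 FPKM (P30), and was 2.08-fold lower in CEBPA than in CTR. SC5D (ENSG00000109929) spans chr11:121163390-121184119 in GRCh37 and TM7SF2 (ENSG00000149809) chr11:64879317-64883856, both on the plus strand. TM7SF2 overlaps VPS51 on the same strand, so that its value could include fragments of that gene.

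The other sterol enzymes differed less. CYP51A1, which demethylates lanosterol, had 40.2 FPKM (CTR), 52.8 FPKM (CEBPA) and 37.2 FPKM (P30), with changes of 0.39 over CTR and 0.50 over P30, the only sterol gene beside SC5D that was higher in CEBPA than in CTR. It overlaps AKAP9 on the opposite strand, which had 15.3, 40.6 and 16.7 FPKM, and the part of that gene in its value was not tested. FDFT1, squalene synthase, had 129, 105 and 133 FPKM. SQLE, squalene epoxidase, had 81.8, 76.2 and 86.0 FPKM. These first enzymes of the branch had changes of only -0.29 and -0.10 in CEBPA over CTR. DHCR7 had 56.2, 42.6 and 63.3 FPKM, a change of -0.39 over CTR and -0.56 over P30. EBP, a sterol isomerase, had 157, 121 and 158 FPKM, a change of -0.37. MSMO1 and NSDHL, which remove methyl groups at C4, had changes of -0.20 and -0.03. HSD17B7, the ketoreductase of the same complex, was the least abundant member, with 13.5 FPKM (CTR), 10.9 FPKM (CEBPA) and 10.0 FPKM (P30), and was the lowest member of P30 over CTR at -0.39.

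In the fatty acid branch 6 of 7 genes were lower in CEBPA than in CTR. The median change was -0.59 over CTR and -0.85 over P30, further down than both cholesterol branches. Over all genes these medians were -0.01 and -0.04. FASN, which builds palmitate, had 121 FPKM (CTR), 51.6 FPKM (CEBPA) and 102 FPKM (P30), and was 2.34-fold lower in CEBPA than in CTR. In GRCh37 FASN (ENSG00000169710) spans chr17:80036214-80056170 on the minus strand. ELOVL6, which elongates palmitate, had 53.4, 28.9 and 54.1 FPKM, a change of -0.86 over CTR and -0.88 over P30. ACLY and ACSS2, which supply acetyl-CoA from citrate and from acetate, had changes of -0.59 and -0.51 over CTR. ACACA, which carries out the committed step to malonyl-CoA, was the exception: it had 36.1 FPKM (CTR), 39.3 FPKM (CEBPA) and 35.6 FPKM (P30), a change of 0.12. FASN and ACACA, consecutive enzymes of the same route, thus differed by over 1 on the log2 scale in CEBPA over CTR.

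FADS1 was the only member at least 1.5-fold apart between P30 and CTR, and it is described with its neighbour and relative FADS2. Both encode front-end desaturases of polyunsaturated fatty acids, FADS2 the delta-6 and FADS1 the delta-5 enzyme. FADS1 had 76.6 FPKM (CTR), 66.0 FPKM (CEBPA) and 223 FPKM (P30), and so became the most abundant member in P30 cells. It was 2.91-fold higher in P30 than in CTR, a log2 change of 1.53 that 55 of 12395 genes (0.444%) equalled or exceeded, itself included. Against P30 its change in CEBPA was -1.74, whereas against CTR it was only -0.21. FADS2 had 123 FPKM (CTR), 61.3 FPKM (CEBPA) and 112 FPKM (P30), that is, a level close to CTR in P30 and a 2.01-fold lower level in CEBPA than in CTR. The ratio of FADS1 to FADS2 was 0.62 in CTR, 1.08 in CEBPA and 1.99 in P30. FADS2 overlaps FEN1 on the same strand, so that its value and this ratio could include fragments of that gene. The part of FEN1 in these values was not tested.

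The genes around FADS1 were examined after its value had been seen. In GRCh37, FADS1 (ENSG00000149485) spans chr11:61567099-61596790 on the minus strand and FADS2 (ENSG00000134824) chr11:61560452-61634826 on the plus strand. The annotated genes therefore overlap on opposite strands. The libraries were strand-specific, but TopHat was run with default parameters, under which it takes a library as unstranded, and the strand setting of the later steps is not given in the sources used here. How far the values of both genes hold fragments of the overlap was not tested. FADS3, another desaturase gene of the cluster, had 41.2 FPKM (CTR), 33.0 FPKM (CEBPA) and 45.0 FPKM (P30), a change of 0.13 in P30 over CTR. MYRF and RAB3IL1, also within 100000 bases of the annotated start of FADS1, had changes of -0.52 and -0.65 in P30 over CTR. That start is the end of the Gencode span given here and not the RefSeq start site of the promoter shown above. The short entry MIR611 had a change of 0.02, and which transcripts its fragments came from was not tested. Of the genes with values in this window, only FADS1, for whose value the window was chosen, was over 2-fold higher in P30. Over all genes 1.02% were at least 2-fold higher, so such a difference among a few neighbours would be rare at any gene.

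**Figure D4:**
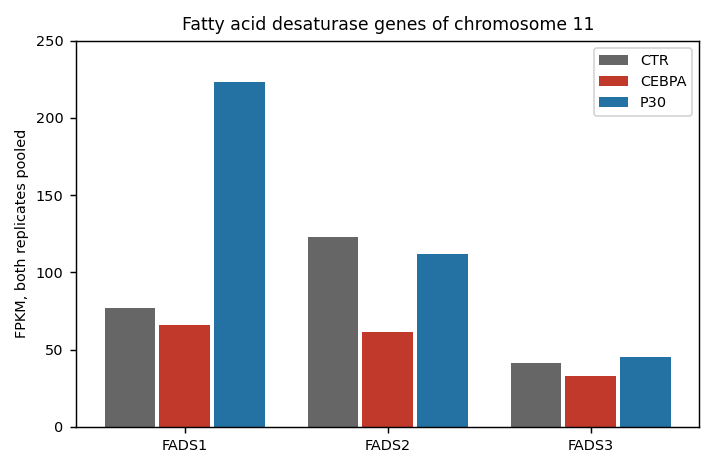
FPKM, with both replicates pooled, of FADS1, FADS2 and FADS3 in CTR, CEBPA and P30 cells. FADS1 reaches 223 FPKM in P30, against 76.6 in CTR and 66.0 in CEBPA, while FADS2 and FADS3 are near their CTR level in P30.

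Genes around the synthesis pathways were taken from 7 lists of 70 genes, of which 61 could be compared between CEBPA and CTR. In CEBPA 8 of these reached 2-fold upwards and 2 downwards, where 14.0% and 6.92% of all genes did so, and their median change was -0.00. In P30 over CTR 0 of 60 reached 2-fold in either direction, a count close to the shares of all genes (1.02% higher and 0.613% lower). The widest differences in CEBPA over CTR were those of PLIN2, ACSL1 and SOAT1. PLIN2, which coats lipid droplets, had 26.7 FPKM (CTR), 164 FPKM (CEBPA) and 19.9 FPKM (P30), a change of 2.58 in CEBPA over CTR. ACSL1, which activates fatty acids to acyl-CoA, had 13.0, 82.4 and 12.1 FPKM, a change of 2.57. SOAT1, which esterifies cholesterol for storage, had 21.5, 95.7 and 21.2 FPKM, a change of 2.10. NPC1, which exports cholesterol from lysosomes, had 14.9, 43.7 and 16.4 FPKM, a change of 1.49. Each of these 4 genes was highest in CEBPA, and CTR and P30 differed by less than 0.5 on the log2 scale.

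Among the genes that sense sterols and process SREBP, 0 of 7 reached 2-fold in CEBPA over CTR, and the list had a median of -0.10. Over all genes 14.0% were at least 2-fold higher and 6.92% lower. The counts of the other short lists in CEBPA over CTR stand beside the same shares. SCAP, which escorts SREBP to the Golgi, had a change of -0.10, MBTPS1, the first protease that cuts SREBP, -0.74, and MBTPS2, the next, 0.47. INSIG2, the relative of INSIG1, had 8.73 FPKM in CTR and 13.8 in CEBPA, a change of 0.60 where P30 over CTR had 0.04, opposite in sign to that of INSIG1. TMEM97 had 41.6, 23.1 and 48.1 FPKM, and was at least 2-fold lower in CEBPA only against P30 (-1.03). Of 7 other isoprenoid genes, GGPS1, which makes geranylgeranyl diphosphate from the product of FDPS, was 2-fold higher or more, with 44.0 FPKM (CTR), 93.0 FPKM (CEBPA) and 42.5 FPKM (P30), whereas FDPS was lower. Of 12 genes for fatty acid supply, elongation and activation, ACSL1 and ACSL4 (1.21) passed 2-fold upwards in CEBPA over CTR and 0 passed it downwards. Of 9 genes of glycerolipid synthesis and droplets, PLIN2 and PLIN3 (1.20) were higher and DGAT2 (-1.03), which makes triglycerides, was lower. DGAT1, which catalyses the same step, was just outside the limit against CTR (-0.98) and inside it against P30 (-1.05).

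**Figure D5:**
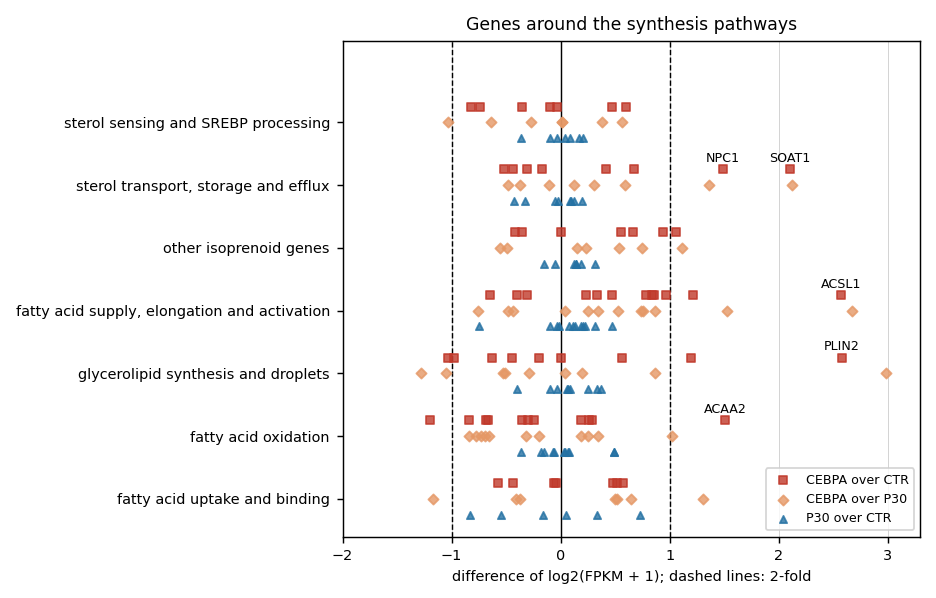
Difference of log2(FPKM + 1) for the genes of 7 lists around the synthesis pathways in the 3 comparisons, with the 2-fold limits as dashed lines and names at the widest changes in CEBPA over CTR. PLIN2 (2.58), ACSL1 (2.57) and SOAT1 (2.10) stand apart on the right, and no P30 over CTR point passes a dashed line.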

How the data were processed

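For the 6 samples, 2 of each group, the authors aligned reads to hg19 with TopHat v2.0.12 at default parameters and assembled them with Cufflinks 2.2.1 on Gencode v.19. The deposited FPKM values were estimated by the authors with Cuffdiff v2.2.1, 1 per gene and group, with the replicates pooled. Libraries came from 2 sequencing runs on different Illumina instruments, which the pooled values do not separate. The setting of library normalization and the rule that selected rows are not given in the sources used here.

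Differences of log2(FPKM + 1) were computed among rows where either group exceeded 1 FPKM, a scale that understates changes of low genes. FPKM is not a count, so no count model was run, and with 1 value per group no test was made. No member had a repeated row. The computation was checked on data with planted changes, well past the 2-fold limit and with little noise, and all 200 of each comparison were recovered. Such a check covers the arithmetic and not how small a change could be seen. Members and lists were chosen with earlier results of these data known. All 27 members are named, in the order of the pathway, and of the surrounding genes those past 2-fold, at most 4 per list with values. INSIG2, SCAP, MBTPS1, MBTPS2 and the neighbours of FADS1 were named after their values were seen. The alternatives were a pseudocount of 0.1, no filter, a filter at 5 FPKM, centring on the median change of all genes, summing rows of a repeated symbol, and symbols listed in all 3 tables.

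Positions are from a later Gencode release on GRCh37, the build of the authors, and promoters from RefSeq on GRCh38.p14, matched by symbol. Scripts ran in Python 3.11.15 with pandas 2.3.3, numpy 2.4.6 and matplotlib 3.10.9.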

Additional observations from a re-analysis of the deposited data

How the results depend on the processing

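No paired analysis was possible because a group's replicates were merged into a single FPKM before deposit, and the fit with a replicate block and the alternatives without each replicate could not be run for the same reason. As working limits, log2 values had to shift by 0.20, the spread of all genes in P30 over CTR, and counts by over 1.5 times to be taken as moved. Of 648 values recomputed for 108 results under 6 alternatives, 645 stayed within these limits and 3 moved. With changes centred on the median, 5 values of P30 over CTR changed sign, all within 0.017 of 0 on the log2 scale: the medians of the members and of the fatty acid branch, PMVK, EBP and ELOVL6. The filters, summed rows and the restriction to symbols of all 3 tables moved no value of a member, since every member was far above the filters and had 1 row. With pseudocount 0.1, 5 members in place of 3 were at least 2-fold lower in CEBPA over P30. With centring they were 2, a change within the working limits. In CEBPA over CTR the 4 members at least 2-fold lower became 5 with pseudocount 0.1 and 3 with centring, also within the limits. The count of members at least 1.5-fold higher in CEBPA over CTR was 2 in place of 1, both with pseudocount 0.1 and with changes centred on the median. The largest shift of a member was 0.055 on the log2 scale with pseudocount 0.1 and 0.036 with centring. These counts changed because genes lay at the edge of the limit. The deposited values hold neither depth nor replicate error, so how small a difference they can show was not determined.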

Other observations

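Genes that burn or take up fatty acids were looked at beside those that make them. Of 11 fatty acid oxidation genes compared between CEBPA and CTR, the median change was -0.30. ACAA2, a thiolase of the mitochondrial pathway, was higher in CEBPA, with 23.7 FPKM (CTR), 69.2 FPKM (CEBPA) and 33.6 FPKM (P30). CPT1A, which passes fatty acids into mitochondria, was lower, with 5.77, 1.95 and 4.27 FPKM. Of 7 uptake and binding genes, 0 reached 2-fold in CEBPA over CTR, where 14.0% of all genes were higher and 6.92% lower. In CEBPA over P30, where these shares were 13.1% and 5.79%, CD36 (1.31) was higher and SLC27A2 (-1.17) lower by over 2-fold. These were also the genes of the list furthest from CTR in P30, at -0.83 and 0.73 on the log2 scale. Both comparisons use the same P30 values, so they are not independent. ME1, which supplies NADPH for fatty acid synthesis, had 22.2 FPKM (CTR), 38.8 FPKM (CEBPA) and 12.8 FPKM (P30), so that CEBPA and P30 lay on opposite sides of CTR. These values have no replicate check.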
